A study of Enchytraeus crypticus with 60 samples.

Results

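Non-coated silver particles (Ag-NPs Non-Coated) were tested on adult *Enchytraeus crypticus* kept for 7 d in LUFA soil, and 9 of the 60 arrays of the study belong to this exposure. The labels, and no measured value, set which arrays these are: 3 arrays at EC20, 3 arrays at EC50 and 3 arrays of the control in un-spiked soil (CT). EC20 and EC50 are the concentrations that lower reproduction by 20% and 50%. For non-coated particles the paper's methods set both close together in mass of silver per kg of soil, so that the doses span a narrow range. Each array held the RNA of whole bodies of 20 pooled worms with a developed clitellum, which were not fed during the exposure, so that tissues within a worm and worms within a pool cannot be told apart. The other arrays hold the same particles at 3 d, silver particles with a polyvinylpyrrolidone layer (Ag-NPs PVP-Coated), silver nitrate (AgNO3) and Ag NM300K, which comes in a dispersant and has its own control (CTdisp), all in groups of 3. The 3 arrays of a group are biological replicates per the study's design.

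*E. crypticus* is a small white segmented worm of the topsoil, used in standard soil toxicity tests because it breeds fast in culture. Silver is toxic to soil invertebrates largely through ions, which bind sulphur groups of proteins. Particles without a coating can release such ions slowly as they dissolve, whereas the nitrate salt dissolves at once. A 3 d and a 7 d exposure of the same particles therefore differ in the time available for release as well as in the time for the worms to respond, and the doses are matched by effect on offspring and not by mass of silver.

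The array is a custom design with 43750 gene probes, each for 1 assembled contig or 1 single sequencing read of the worm. The files pair the probes with these identifiers and with no gene name or sequence, so that gene functions are not described here and probes are named by contig or read. The tests used the 23179 probes (53.0%) that were above background on every one of the 60 arrays, of which 11180 were contigs and 11999 were single reads. Between 66.9% and 97.7% of the gene probes were above background on an array, and log2 signals of arrays of 1 group correlated at 0.945 to 0.992. Within the 9 arrays, the EC50 arrays correlated at 0.984 to 0.985 with each other, the CT arrays at 0.975 to 0.980, and the EC20 arrays at 0.954 to 0.978. EC20 replicate 1 had the lowest correlations, 0.954 to 0.975 with the other 8 arrays, against 0.963 to 0.990 among those 8. Without it, 137 probes in place of 187 passed at EC20, 100 in place of 118 passed at both doses, and 0 differed between the doses, the results described below. Of those 100 probes, 71 were among the 118. They were 54 of its 68 over-expressed and 17 of its 50 under-expressed probes.

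At EC20, 187 probes were differentially expressed (DEGs) against CT, which is 0.807% of the probes tested. Of these, 108 were over-expressed (0.466%) and 79 under-expressed (0.341%). At EC50, 327 probes were DEGs (1.41%), with 241 over-expressed (1.04%) and 86 under-expressed (0.371%). A DEG is here a probe whose limma p, adjusted over all probes tested, is below 5%. The median size of change of the DEGs was 1.19 on the log2 scale at EC20 and 0.996 at EC50, and 121 and 162 of them changed by more than 2-fold. The median over all probes was 0.06 at EC20 and 0.09 at EC50, a level that depends on the normalization. Of the 187 DEGs at EC20, 183 had all 3 exposed arrays beyond all 3 CT arrays, and so had 326 of 327 at EC50. Among all probes tested, 18.8% and 24.8% had such separate groups. At EC20, 12.9% lay above CT and 5.91% below it, and at EC50 17.6% above and 7.19% below.

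The balance of over- and under-expression depended on the normalization. After SVCD normalization, which aligns groups over probes without variation only, 57.8% of the DEGs were over-expressed at EC20 and 73.7% at EC50. After Median normalization, which gives every array the same median, the DEGs were 165 and 176, of which 33.3% and 38.1% were over-expressed. The 50 probes under-expressed at both doses were all DEGs at both doses after either normalization, whereas 31 of the 68 probes over-expressed at both doses stayed DEGs at both after Median normalization. Fewer probes were above background on the CT arrays (66.9% to 72.2%) than at EC20 (74.4% to 81.2%) or EC50 (80.2% to 87.0%). The CTdisp arrays at 7 d, without silver, had 77.0% to 82.5%, and CT replicate 3 was the lowest of the 60 arrays. In 11 of the 108 over-expressed probes at EC20 and 20 of the 241 at EC50, no CT array was well above background, and with these at their bounds the median change was 1.05 in place of 1.11 and 0.89 in place of 0.94. The part of signal strength in the counts was not tested.

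The counts moved with single arrays. At EC20, 56 probes were DEGs without CT replicate 1, 331 without EC20 replicate 2 and 1100 without EC20 replicate 3, where 7.09% were over-expressed. At EC50, 151 were DEGs without CT replicate 1, 183 without CT replicate 3, 140 without EC50 replicate 1 and 75 without EC50 replicate 2. With only the 2 groups compared in the model, which leaves the spread to be estimated from 6 arrays, the counts fell to 1 and 3.

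**Figure D1:**
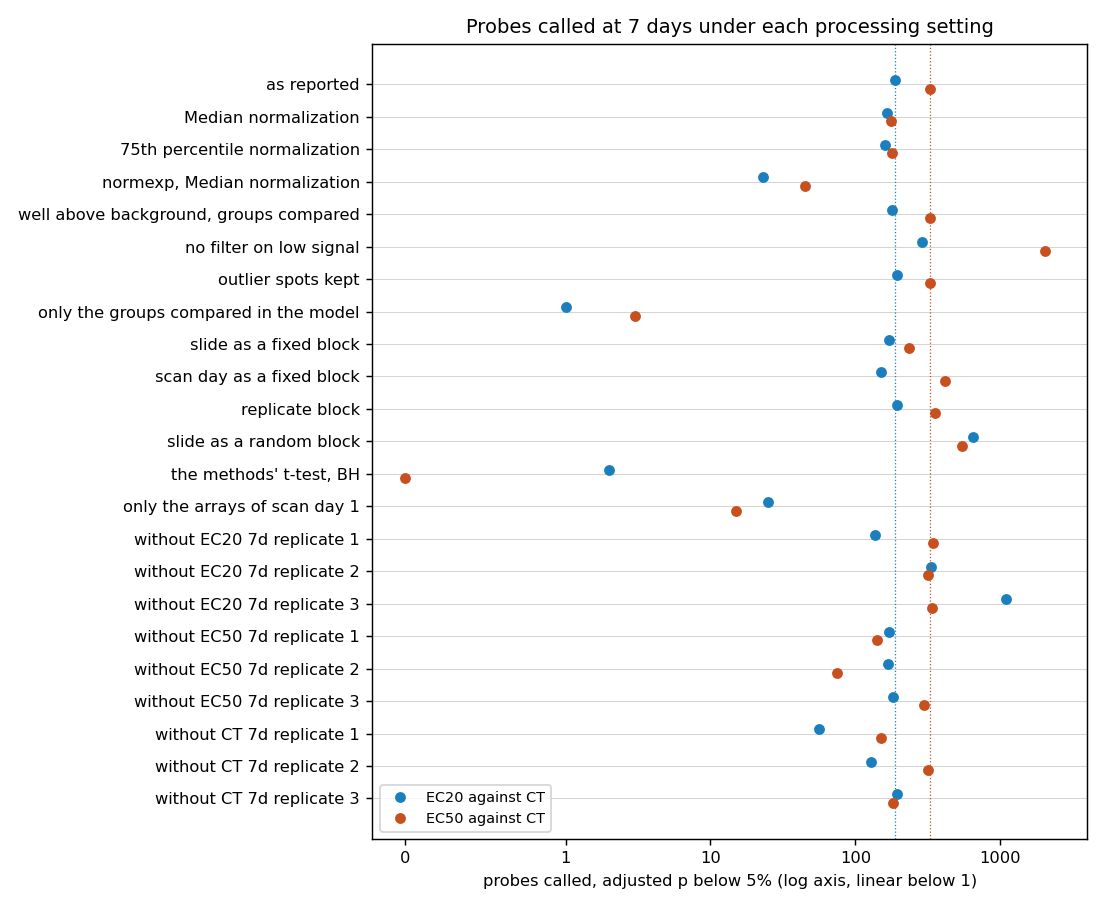
Number of probes called at 7 d against CT (x axis, log scale that is linear below 1) under each processing setting (y axis), for EC20 in blue and EC50 in orange, with dotted lines at the reported counts of 187 and 327. Median and 75th percentile normalization and the blocks give between 151 and 650, models of only the 2 groups compared drop to 3 or fewer, and the count at EC20 reaches 1100 without EC20 replicate 3.

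The largest change of all was in the single read GYUW2K401DLXG6 (probe CUST_31050_PI427420766_b), which was under-expressed at both doses. Its normalized log2 signal was 14.61, 13.11 and 14.12 in CT, 6.36, 5.92 and 6.51 at EC20, and 8.05, 4.05 and 6.18 at EC50. All 6 exposed arrays were far below all 3 CT arrays, and the EC50 arrays spread more (SD 2.00, n = 3) than the EC20 arrays (SD 0.31, n = 3). The change was -7.68 ± 0.83 (log2, SE) at EC20 (adjusted p = 1.81e-07), a signal 206-fold lower. At EC50 it was -7.85 ± 0.83 (adjusted p = 9.61e-08), a signal 231-fold lower. Here and below, the SE is from the fit over all 60 arrays and not from the spread of the groups shown alone.

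contig14604 (CUST_16326_PI427420766_b) was the second most under-expressed probe at EC20 by the naming rule. It read 8.22, 8.51 and 8.26 in CT, 5.11, 4.09 and 3.14 at EC20 and 4.11, 4.13 and 4.68 at EC50. The CT arrays agreed closely (SD 0.16, n = 3) and no exposed array came within 3 log2 units of them. The change was -4.22 ± 0.58 at EC20 (adjusted p = 2.46e-05), where 2 of 3 arrays were well above background, and -4.02 ± 0.58 at EC50 (adjusted p = 6.32e-05).

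The read GYUW2K402FNSH5 (CUST_76406_PI427420766_b) was the second most under-expressed probe at EC50 by the same rule. Its values were 7.71, 6.63 and 6.94 in CT, 4.03, 2.77 and 2.00 at EC20 and 3.00, 2.501 and 3.61 at EC50. The groups did not overlap, and 1 of 3 EC20 arrays and 2 of 3 EC50 arrays were well above background, so that the exposed values lie near the limit of the array. The fitted change was -4.16 ± 0.73 at EC20 (adjusted p = 0.00174) and -4.06 ± 0.73 at EC50 (adjusted p = 0.00156).

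The strongest over-expression was in contig19694 (CUST_10724_PI427420766_b). Its values were 8.10, 7.11 and 8.31 in CT, 12.48, 11.15 and 13.29 at EC20 and 11.72, 12.07 and 11.86 at EC50. All exposed arrays were above all CT arrays, with a tight group at EC50 (SD 0.18, n = 3) and a wide one at EC20 (SD 1.08, n = 3). The signal was 22.0-fold higher at EC20 (4.46 ± 0.79, adjusted p = 0.00174) and 16.5-fold higher at EC50 (4.04 ± 0.79, adjusted p = 0.00334). With slide as a fixed block the adjusted p was 0.0617 and 0.157, so that these calls did not hold there.

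The read GYUW2K401DLQ92 (CUST_24211_PI427420766_b) came next at both doses. Its values were 5.09, 5.64 and 5.93 in CT, 9.91, 9.50 and 6.85 at EC20 and 9.79, 9.96 and 8.09 at EC50. Replicate 3 was the lowest exposed array at either dose, yet above CT. The change was 3.20 ± 0.68 at EC20 (adjusted p = 0.0127) and 3.73 ± 0.68 at EC50 (adjusted p = 0.00184). At EC20 the adjusted p was 0.0784 without CT replicate 1 and 0.0614 without EC20 replicate 1. With slide as a fixed block it was 0.0801 at EC20 and 0.0627 at EC50.

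**Figure D2:**
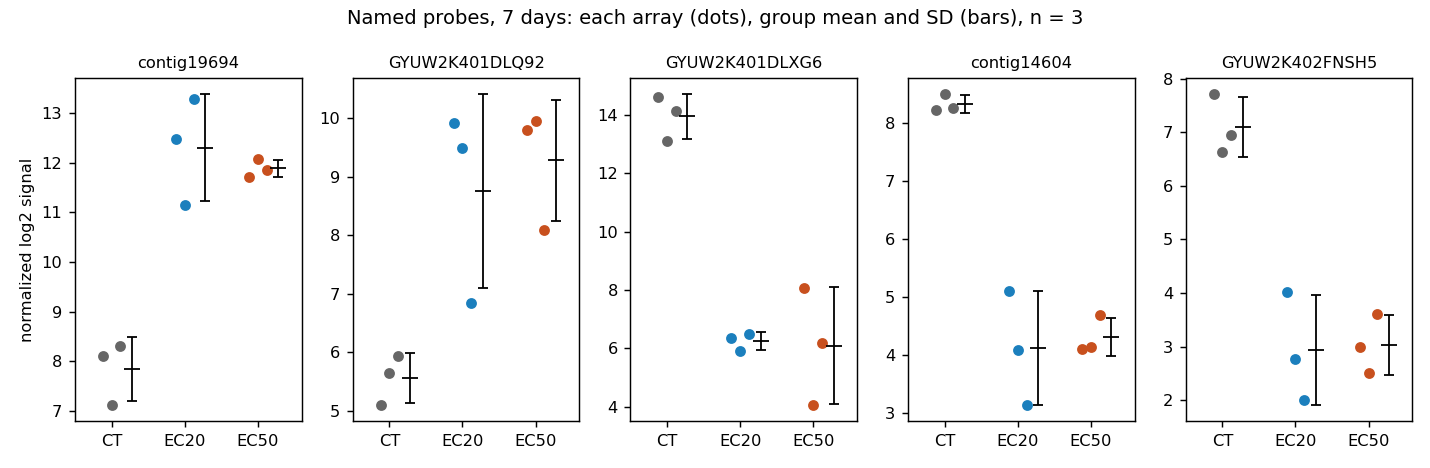
Normalized log2 signal (y axis, own scale in each panel) of the 5 most changed probes in the 3 arrays of CT (grey), EC20 (blue) and EC50 (orange), with the group mean and SD beside the dots. In every panel the 6 exposed arrays lie on one side of the 3 CT arrays, and the EC20 and EC50 arrays overlap.

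The kind of sequence and the CT signal of the called probes are given as a description. The CT arrays that give the signal also enter the change, and the filter kept only probes above background on every array, so that dim probes had little room to fall and part of the difference in CT signal is set beforehand. Among all probes tested, 48.2% were contigs, and the median log2 signal in CT was 6.56. Of the over-expressed probes, 34.3% were contigs at EC20 and 33.6% at EC50, and their median CT signals were 5.82 and 6.09. Of the under-expressed probes, 54.4% and 57.0% were contigs, with median CT signals of 8.09 and 8.02. When the probes were cut into 4 equal bins of CT signal, the bin from 4.92 to 6.56 held the highest rates of over-expression, 0.690% of its probes at EC20 and 1.47% at EC50. In that bin the rate at EC50 was 2.09% of 3105 reads and 0.743% of 2690 contigs, a higher rate in reads at a like signal, which was not tested. The bin from 6.56 to 8.90 held the highest rates of under-expression, 0.656% at EC20 and 0.725% at EC50, and there contigs led with 1.08% of 2227 at EC50 against 0.505% of 3567 reads. In the lowest bin, 3 and 1 of 5795 probes were under-expressed, and the median SE at EC50 was 0.40 there against 0.20 in the highest.

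The 2 doses were compared with each other in 3 ways. Because both were compared with the same 3 CT arrays, part of any likeness comes from those arrays. In all, 118 of the 23179 probes tested were DEGs at both doses, 63.1% of the EC20 list and 36.1% of the EC50 list. All 118 had 1 sign, 68 over- and 50 under-expressed. The count was 48 without CT replicate 1 and 60 without EC50 replicate 2, of which 34 and 60 were among the 118. It was 11 with normexp background correction and Median normalization, 243 without a filter and 298 with slide as a random block. Of these, 10, 85 and 116 were among the 118. A further 69 probes were DEGs at EC20 and not at EC50, and 209 at EC50 and not at EC20, which made 396 probes at either dose. The median change of the 68 over-expressed probes was 1.06 at EC20 and 1.08 at EC50, and that of the 50 under-expressed probes was -1.36 and -1.33.

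Separate control arrays were used for the second comparison. EC20 was set against CT and EC50 against CTdisp, the soil with the dispersant. Between CTdisp and CT, 0 probes differed in limma, and 872 (3.76%) had an unadjusted limma p below 5%. The changes of the 2 doses then shared no array. They correlated at 0.547 over the 23179 probes, and at 0.508 with the control groups exchanged (0.334 without EC20 replicate 3). Probes of 1 array are not independent of each other, and all share the normalization. Against CTdisp, 126 probes were DEGs at EC20 (0.544%), 64 over- and 62 under-expressed. At EC50, 279 were (1.2%), 202 over- and 77 under-expressed. Of the 108 probes over-expressed at EC20 against CT, 106 were higher at EC50 than in CTdisp and 36 (33.3%) were DEGs in that direction, against 0.871% of all probes. Of the 79 under-expressed at EC20, 78 were lower at EC50 than in CTdisp and 32 (40.5%) were DEGs in that direction, against 0.332%. With the groups exchanged, 32 of the 241 probes over-expressed at EC50 (13.3%) and 31 of the 86 under-expressed (36.0%) were DEGs at EC20 against CTdisp in the same direction, against 0.276% and 0.267% of all probes. No probe of these lists was a DEG in the opposite direction.

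**Figure D3:**
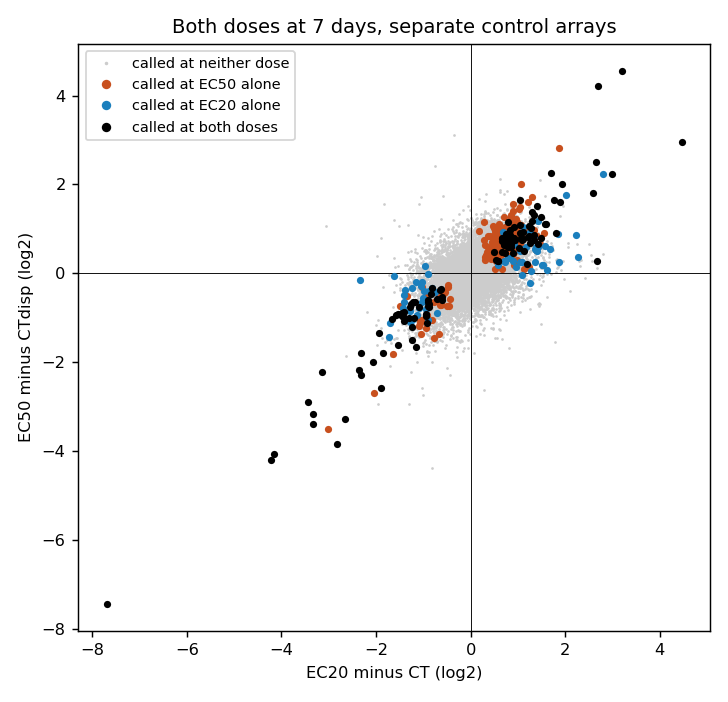
Change at EC20 against CT (x axis, log2) and at EC50 against CTdisp (y axis, log2) for the 23179 probes at 7 d, with probes called against CT at both doses in black, at EC20 alone in blue, at EC50 alone in orange and at neither in grey. The 2 axes share no array, the correlation is 0.547, and nearly all called probes lie at the lower left and upper right. The called probes were chosen on the x values or on the EC50 arrays of the y axis, so that their place is partly set by that choice.

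The third comparison tested EC50 against EC20 directly. None of the 23179 probes was a DEG between the doses in limma (0%), with a smallest adjusted p of 0.178, and 552 probes (2.38%) had an unadjusted p below 5%. The median difference was 0.03 on the log2 scale, and the median half-width of its 95% interval was 0.58. The interval lay wholly within 2-fold in either direction for 74.0% of all probes and for 78.0% of the 396 DEGs, so that for the others a 2-fold difference between the doses is not bounded by these arrays. Among the 118 probes called at both doses, the differences ran from -0.62 to 0.74 with a median of 0.04, and 1 had an unadjusted p below 5%. Among the 69 called at EC20 alone, 14 had one, and among the 209 called at EC50 alone, 8. Those lists were chosen on arrays that enter the difference, so these counts are a description. The direct count moved with single arrays, to 8 without EC20 replicate 2 and to 457 without EC20 replicate 3, of which 453 were higher at EC50.

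In the probes with the smallest p between the doses, the difference moved with single EC20 arrays. The read GYUW2K402I2MHH (CUST_89258_PI427420766_b) read 9.08, 9.30 and 9.38 in CT, 7.75, 6.33 and 8.81 at EC20, and 8.98, 9.06 and 8.96 at EC50. The EC50 arrays lay just below the CT arrays without overlap (-0.25, adjusted p = 0.743), and the EC20 arrays were lower still and far apart (SD 1.25, n = 3). Its difference of 1.37 ± 0.27 had an adjusted p of 0.178, without EC20 replicate 2 it was 0.66 (adjusted p = 0.282), and without EC20 replicate 3 it was 2.19 (adjusted p = 7.07e-08).

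The second probe higher at EC50, contig17399 (CUST_13267_PI427420766_b), read 8.87, 11.30 and 11.21 at EC20 and 11.50, 11.68 and 11.47 at EC50. Replicate 1 alone was low, and the difference of 1.09 ± 0.28 (adjusted p = 1) was 0.16 without it (adjusted p = 1). It passed without EC20 replicate 2 (adjusted p = 0.0366) or 3 (adjusted p = 0.00144), which left replicate 1 as 1 of 2 arrays. The read GYUW2K402FYN31 (CUST_54047_PI427420766_b) was lower at EC50, with 7.37, 5.50 and 5.56 at EC20 and 4.68, 4.64 and 5.47 at EC50. contig14628 (CUST_16360_PI427420766_b) read 6.43, 4.94 and 4.75 at EC20 and 4.71, 4.49 and 4.37 at EC50. In both, EC20 replicate 1 was the highest array, and without it the differences of -1.21 ± 0.30 and -0.85 ± 0.23 (adjusted p = 1 each) were -0.73 and -0.45. GYUW2K402FYN31 passed without EC20 replicate 2 or 3 (adjusted p = 0.0413 and 0.0261) and contig14628 without replicate 3 (adjusted p = 0.024).

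The same array was the farthest of the 6 exposed arrays from their median in 460 (83.3%) of the 552 probes with an unadjusted p below 5%, and in 24.9% of all probes. EC20 replicate 3 was the farthest in 24.6% of all probes and in 1.45% of the 552. Replicate 1 was the only one of the 9 arrays scanned on its day, so that array and scan day cannot be told apart.

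**Figure D4:**
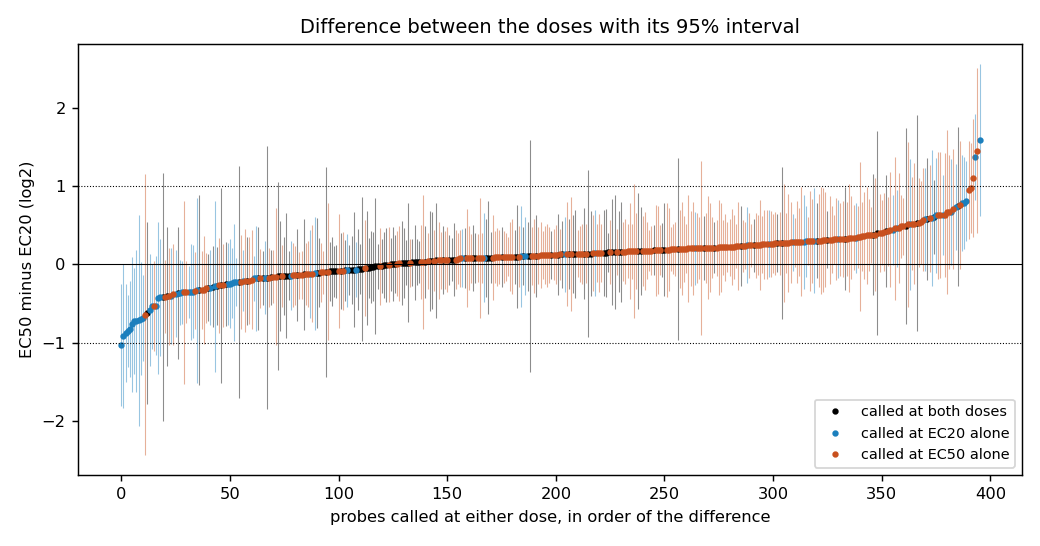
Difference between EC50 and EC20 at 7 d (y axis, log2) with its 95% interval for the 396 probes called at either dose, in order of the difference (x axis), with probes called at both doses in black, at EC20 alone in blue and at EC50 alone in orange. Dotted lines mark 2-fold. Most probes called at both doses lie near 0, and the extremes on either side are mainly probes called at one dose alone. The classes were made on arrays that enter the difference, so that this pattern is partly set by that choice.

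Scan days were not spread evenly over the groups. All 3 CT arrays were scanned on 1 day, together with EC20 replicate 2 and EC50 replicate 1. Within that day, EC20 replicate 2 was above all 3 CT arrays in 106 of the 108 over-expressed probes (1 had no value there) and below them in all 79 under-expressed probes, against 31.1% and 21.0% of all probes. EC50 replicate 1 was above all 3 CT arrays in all 241 over-expressed probes and below them in all 86 under-expressed probes, against 36.5% and 22.9%. These arrays also entered the calls, so the counts are a description. In the probes over-expressed at EC20, the median difference from CT was 0.94 in the array of that day and 1.21 in the mean of the other 2, and at EC50 it was 0.92 in both. In the under-expressed probes it was -1.34 and -1.14 at EC20, and -1.02 and -1.21 at EC50. With scan day as a block, 151 probes were DEGs at EC20 and 417 at EC50. With slide as a fixed block, 171 and 235 were, and with slide as a random block 650 and 547 (correlation within slides 0.354), so that the slide moved the counts either way. With the exposed and CT arrays of that day alone, which set 1 exposed array against 3, 25 and 15 were, and on the slide that held EC20 replicate 2 and CT replicate 3, 1 array against 1, 35 were. The spread in these fits came from the other groups of the series, and the lone arrays were assumed to vary like them, so that these counts do not show whether the calls hold within a day or slide.

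A smaller set of probes passed at both doses in many of these settings at once. Of the 118 probes, 18 (8 over- and 10 under-expressed) stayed DEGs at both doses after Median and 75th percentile normalization, with outlier spots kept, with slide, scan day or replicate number as a block, and without each of the 9 arrays in turn. The set was not required to pass with normexp background correction, without a filter or in the smaller models. These 18 were picked after their values were seen and are given as a description. The 8 over-expressed probes changed by 0.83 to 2.99 at EC20 (median 1.29) and by 0.89 to 2.63 at EC50 (median 1.35), and 5 of them were contigs. The 10 under-expressed probes changed by -7.68 to -1.19 at EC20 (median -2.82) and by -7.85 to -1.12 at EC50 (median -2.84), and 6 were contigs. Their differences between the doses ran from -0.36 to 0.32 and from -0.17 to 0.20. GYUW2K401DLXG6, contig14604 and GYUW2K402FNSH5 were among them, and contig19694 and GYUW2K401DLQ92 were not.

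At 3 d the same particles were measured on other arrays, both exposed and CT, while the estimate of each probe's spread was shared. There, 2968 probes were DEGs at EC20 (12.8%) and 11431 at EC50 (49.3%), nearly all over-expressed, and the median of all probes was raised by 0.24 and 0.58. Changes at 3 d are therefore also given against that median. Of the 68 probes over-expressed at both doses at 7 d, 22 were over-expressed DEGs at EC20 at 3 d (32.4%, against 12.4% of all probes) and 52 at EC50 (76.5%, against 48.6%), and 53 lay above the median of all probes at either dose. Of the 50 under-expressed probes, 11 were under-expressed DEGs at EC20 at 3 d (22.0%, against 0.384%) and 10 at EC50 (20.0%, against 0.673%), and 40 and 41 lay below the median of all probes. Against CT itself, 36 of the 50 were lower at EC20 at 3 d (median -0.30) and 20 of the 50 at EC50 (median 0.15), so that most of them were above CT at EC50. In the opposite direction, 2 and 9 of the 50 were DEGs.

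**Figure D5:**
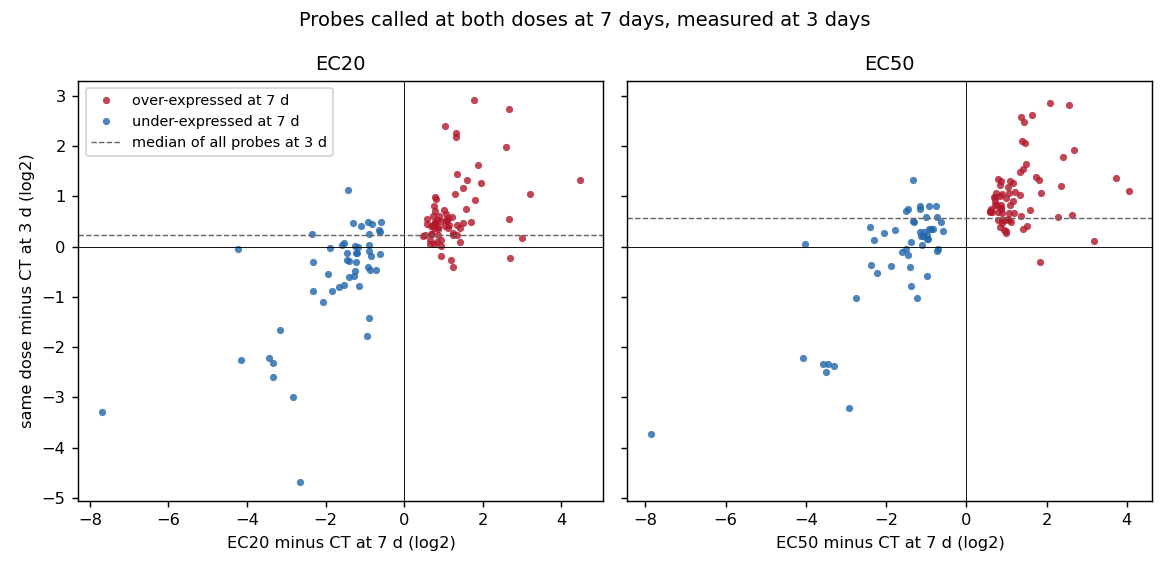
Change against CT at 7 d (x axis, log2) and at 3 d (y axis, log2) for the 118 probes called at both doses at 7 d, at EC20 (left) and EC50 (right), over-expressed probes in red and under-expressed in blue. The 2 axes share no array, and dashed lines mark the median of all probes at 3 d (0.24 and 0.58), below which 40 and 41 of the 50 under-expressed probes lie.

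The change of the effect from 3 d to 7 d was tested as an interaction. It passed in 236 probes at EC20 (1.02%), 230 of them with a lower change at 7 d (0.992%) and 6 with a higher one (0.0259%), and in 4352 at EC50 (18.8%), 4329 of them lower (18.7%) and 23 higher (0.0992%). Over all probes the median change of effect was -0.20 and -0.46, the direction of nearly all these calls. After Median normalization, where the medians were 0.01 and -0.03, the counts were 8 and 20. That normalization takes out a shift of all probes whatever its origin, so the drop does not tell what the calls reflect. The part of the shift in the counts was not tested. At EC20 the count was 15 without CT 3 d replicate 3, 1, 5 and 1231 without EC20 3 d replicates 1, 2 and 3, 495 without CT 3 d replicate 2, 53, 2 and 360 without CT 7 d replicates 1, 2 and 3, and 3, 35 and 3128 without EC20 7 d replicates 1, 2 and 3. At EC50 it was 1214 without CT 3 d replicate 3, 7392, 1765 and 649 without EC50 3 d replicates 1, 2 and 3, 1149 without CT 7 d replicate 2 and 1106 without EC50 7 d replicate 3.

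For the named probes the values at 3 d and the test of the change to 7 d were as follows. contig14604 was at -0.05 (adjusted p = 0.973) at EC20 and 0.05 (adjusted p = 0.953) at EC50 at 3 d, and the change of its effect to 7 d was -4.17 (adjusted p = 0.0142) and -4.07 (adjusted p = 0.00151). Over the alternatives that kept all arrays and the full model, the change at EC50 passed in 9 of 10 and that at EC20 in 7 of 9, and with 1 array left out in 12 of 12 and 8 of 12. GYUW2K401DLXG6 was already under-expressed at 3 d, by -3.30 (adjusted p = 0.00685) and -3.72 (adjusted p = 0.000349), and fell further at EC50 (change of effect -4.13, adjusted p = 0.0134, which passed in 5 of 10 alternatives), while at EC20 the change of effect was -4.39 (adjusted p = 0.0519). GYUW2K402FNSH5 was at -2.26 (adjusted p = 0.0354) and -2.22 (adjusted p = 0.011) at 3 d, and its change of effect did not pass (-1.91, adjusted p = 0.405, and -1.84, adjusted p = 0.211). contig19694 and GYUW2K401DLQ92 did not pass at 3 d, at 1.33 and 1.05 at EC20 and 1.10 and 1.38 at EC50 (adjusted p = 0.0915 to 0.351). Their change of effect did not pass either, at 3.13 (adjusted p = 0.15) and 2.94 (adjusted p = 0.0557) for contig19694 and 2.15 (adjusted p = 0.281) and 2.35 (adjusted p = 0.0788) for GYUW2K401DLQ92, so that a later onset is not shown for these 3 probes.

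Against the other forms of silver at 7 d, 4 direct comparisons were made. Non-coated and PVP-coated particles differ in the polymer layer on the particle. By the paper's methods, they had the same mass of silver per kg of soil at EC20, and PVP-coated particles had more at EC50. Between them, 0 probes were DEGs at EC20 and 0 at EC50 in limma. An unadjusted limma p below 5% was found in 962 (4.15%) and 658 (2.84%) of the probes. The 95% interval of the difference lay within 2-fold in either direction for 69.9% and 70.6% of the probes, and for the others a 2-fold difference is not bounded. Without EC20 replicate 3 the count at EC20 was 316, of which 3 were higher with non-coated particles, without EC20 replicate 2 it was 12, and without PVP-Coated EC20 replicate 3 it was 1. Without PVP-Coated EC50 replicate 3 the count at EC50 was 35. Against the CT arrays that the materials share, PVP-coated particles had 1.79% DEGs at EC20 (1.17% over- and 0.617% under-expressed) and 7.53% at EC50 (5.48% and 2.05%). GYUW2K401DLXG6 was at -8.18 and -8.88 with PVP-coated particles and contig14604 at -4.38 and -3.58. contig19694 was at 3.39 and 4.53.

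Between non-coated particles and AgNO3, 2012 probes (8.68%) at EC20 and 594 (2.56%) at EC50 had an unadjusted limma p below 5%. After adjustment, 1 probe was a DEG at either dose (0.00431% each), and both probes are named here because of these counts. At EC20 it was GYUW2K402I2MHH, which read 9.22, 9.09 and 9.30 with AgNO3 against 7.75, 6.33 and 8.81 with the particles (-1.58, adjusted p = 0.014). At EC50 it was contig04717 (CUST_495_PI427420766_b), which read 8.13, 7.35 and 8.55 with AgNO3 against 10.11, 9.90 and 9.71 with the particles and 9.96, 10.04 and 9.61 in CT. AgNO3 was the group that stood apart there (1.90 higher with the particles, adjusted p = 0.0439). With replicate number as a block its adjusted p was 0.0536, with Median normalization it was 0.071, and the call was lost without AgNO3 replicate 2 (adjusted p = 0.536) and without any 1 of the 3 particle arrays. At EC20 the count was 0 without AgNO3 replicate 1 or 2 or EC20 replicate 1, 17 without AgNO3 replicate 3, and 53 and 3735 without EC20 replicates 2 and 3. At EC50 it was 9 without AgNO3 replicate 1 and 0 without any 1 of the particle arrays. Against CT, AgNO3 had 0.151% DEGs at EC20 (0.129% over- and 0.0216% under-expressed) and 0.121% at EC50 (0.069% and 0.0518%). GYUW2K401DLXG6 was at -4.04 and -5.52 with AgNO3 and contig14604 at -2.97 and -3.67, each with an adjusted p below 5%, and contig19694 was at 1.56 (adjusted p = 0.429) and 1.48 (adjusted p = 0.718). GYUW2K402FNSH5 was at -2.49 (adjusted p = 0.148) and -2.75 (adjusted p = 0.134), and GYUW2K401DLQ92 at 2.06 (adjusted p = 0.208) and 1.25 (adjusted p = 0.739).

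Ag NM300K and its control CTdisp share no array with the 9 arrays described here, but the estimate of each probe's spread was shared. All 50 probes under-expressed at both doses of the non-coated particles were lower with Ag NM300K than in CTdisp at either dose, with medians of -0.97 and -0.81, and 16 (32.0%) and 24 (48.0%) were DEGs, against 0.173% and 0.418% of all probes. Of the 68 over-expressed probes, 67 were higher at EC20 and 68 at EC50, with medians of 0.65 and 0.91 beside 0.02 and 0.18 over all probes, and 10 (14.7%) and 51 (75%) were DEGs, against 0.125% and 5.32%. None was a DEG in the opposite direction. GYUW2K401DLXG6 was at -3.95 and -6.80 with Ag NM300K, contig14604 at -3.22 and -4.51, and GYUW2K401DLQ92 at 3.05 and 2.85, each with an adjusted p below 5%. contig19694 was at 2.43 (adjusted p = 0.17) and 2.94 (adjusted p = 0.0208). GYUW2K402FNSH5 passed at neither dose, at -2.72 (adjusted p = 0.0782) and -2.13 (adjusted p = 0.0743).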

How the data were processed

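RNA of 60 pools of worms was hybridized on 60 custom Agilent arrays with 1 colour. The authors quantified the scans with Agilent Feature Extraction 10.7.3.1, and the deposited files hold a background-corrected intensity per spot (the processed signal), the spot and local background intensity, and flags. The series matrix repeats this intensity after rounding (largest difference 0.498%).

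Log2 processed signals were analysed for gene probes that Feature Extraction marked as positive and significant on each of the 60 arrays. Outlier spots (308 in 299 probes) were set missing, and no spot was saturated. SVCD normalization was written anew after the study's description and used 6587 probes without variation among 22880. Groups came from the labels. Groups were compared in limma 3.58.1 (R 4.3.3), two-sided, in 1 model with a mean per group over the 60 arrays, with Benjamini-Hochberg adjustment over all probes of a comparison. An interval is at 95% from the same fit. The methods' t-test, other normalizations, filters, blocks and leaving out each array were alternatives. Scripts were tested on simulated data. The array number limits the precision.

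The named probes are, per dose, the 2 highest and 2 lowest DEGs with separate groups and without outlier spots that were well above background on all arrays of a group, the same over both doses, and for the doses against each other the 2 smallest p in each direction. The exposure, the probes and the lists were chosen with earlier results of these data known. A bound on a dim probe sets the bright group's mean against the lowest signal well above background.

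Same-numbered replicates of CT and EC50 deviated together (correlations of 0.215 to 0.254 in 3 of 3 pairs). Arrays with unlike numbers reached 0.396 (EC20 replicate 3 with EC50 replicate 1). The reported counts come from the model without pairs, and replicate number as a block was an alternative. In the other comparisons the correlations of same-numbered replicates ran from below 0.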

Additional observations from a re-analysis of the deposited data

Results flagged for a closer look

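The interaction of dose group with time passed in 236 probes at EC20 and in 4352 at EC50, which was picked out because the effect at 7 d differed from that at 3 d by a direct test. The median change of effect over all probes was -0.20 and -0.46, and after Median normalization 8 and 20 probes passed. That normalization takes out a shift of all probes whatever its origin.

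Among the probes left out of the tests because at least 1 of the 60 arrays did not measure them above background, 159 were well above background on all 6 exposed arrays and on none of the 3 CT arrays at 7 d. The reverse pattern was found in 2. The 3 CTdisp arrays, without silver, were well above background where no CT array was in 308 such probes, and the reverse was found in 0. Well above background were 46.0% to 51.0% of the gene probes on CT arrays, 55.2% to 65.1% on the exposed arrays and 55.8% to 61.8% on the CTdisp arrays. With CT and CTdisp both as controls, 7 of the left-out probes were well above background on the 6 exposed arrays only. Over all 43750 gene probes, kept and left out, 451 (1.03%) were well above background on the 6 exposed arrays and on no CT array. The reverse was found in 2 (0.00457%). For CTdisp against CT the first pattern was found in 762 (1.74%), and for the exposed arrays against both controls in 9 (0.0206%).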

How the results depend on the processing

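Of 567 values of named probes under alternatives, 466 kept their direction and side of the threshold, 81 lost the call, 19 gained one, and 1 changed sign (contig19694, change of effect at EC20, -0.67 within scan day 1, never called). Under normexp with Median normalization, 23 (EC20) and 45 (EC50) probes were DEGs, 0 and 2 in the interactions, 0 and 0 against AgNO3, and 11 at both doses. Median and 75th percentile normalization gave 176 and 180 at EC50, 8 and 9 in the EC20 interaction, 20 and 22 in the EC50 interaction, and 0 against AgNO3 EC50. Without a filter the counts were 288, 2022, 1, 2, 4 and 1 (PVP-Coated), 0 and 0 (AgNO3), and 243 at both doses, with an agreement of 0.355. With only the groups compared, 1, 3, 34, 2779 and 0 (AgNO3 EC20) passed, and by the methods' t-test 2 and 0 (2477 and 3832 before adjustment), 0 in the EC20 interaction, and 0 and 0 against AgNO3. A fixed slide block gave 408 and 1985 in the interactions, a random one 650, 547, 741 and 298 at both doses, and a scan day block 143 in the EC20 interaction; each gave 0 against AgNO3 EC50. Within scan day 1, which was added after the data were seen, 25, 15, 1 between the doses, 114, 21, 60 (AgNO3 EC20) and 0 passed, within scan day 3 0 against AgNO3 EC50, and on the shared slide 35. There each exposed group at 7 d had 1 array, or 2 at EC50 on scan day 3, and the lone arrays were assumed to vary like the other groups, so that these counts say nothing about stability.

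The replicate block gave 195 at EC20, 356 at EC50, 0 between the doses, 223 and 4372 in the interactions and 121 at both doses. It ended the call against AgNO3 EC50 (0) and changed no other count by over 1.5 times.

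Leaving out 1 array at a time gave 56 to 1100 at EC20, 75 to 345 at EC50, 0 to 457 between the doses, 1 to 3128 and 649 to 7392 in the interactions, 0 to 316 and 0 to 35 against PVP-Coated, 0 to 3735 and 0 to 9 against AgNO3, 48 to 113 at both doses, and an agreement of 0.469 to 0.564. The cause of these shifts was not tested. Signals near background limit the precision of the dimmest probes.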
